A study of Mus musculus with 20 samples.

Results

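The genes described here are 35 genes of the heart muscle cell, and the question was how much of their transcript each library of mouse aorta carried. They were taken from the count table by gene symbol, and all 35 were found among its 54532 genes. They were picked by name for what they are known to do in heart muscle, as parts of the sarcomere, of calcium release and uptake, of oxygen and energy supply, and as cardiac hormones. The study sequenced RNA from the aorta of C57BL/6J mice, an inbred strain with no engineered allele named. Mice received either water, the control, or β-aminopropionitrile (BAPN), an inhibitor of lysyl oxidase that blocks the cross-linking of elastin and collagen, for 1 week. Ascending and descending thoracic aorta were sequenced, which gives 4 groups of 5 libraries: ascending aorta under water, ascending aorta under BAPN, descending aorta under water and descending aorta under BAPN. The labels give no age, sex or dose, and do not say whether libraries of the same number came from the same mouse or whether tissue was pooled. The p-values therefore measure the spread between these libraries, which may be partly technical.

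Heart muscle contracts when calcium released from the sarcoplasmic reticulum binds troponin on the thin filament and lets myosin of the thick filament pull on actin. Most of these proteins exist in forms that are made mainly in striated muscle, and some differ between chambers: Myl7 and Myl4 encode the light chains of atrial myosin, Myl2 and Myl3 those of ventricular myosin. The ascending aorta leaves the left ventricle at the aortic valve, next to the atria, while the descending aorta lies away from the heart. The aortic wall itself is built of smooth muscle, which uses other myosin, actin and regulatory genes.

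Libraries held 15744725 to 23292294 counts. Levels are counts per 1e6 counts (CPM), on library totals adjusted by edgeR's TMM factors. The labelled tissue was checked with 10 smooth muscle genes (Myh11, Acta2, Tagln and others), none of them at 0 in any group. Their summed level ran from 23420 to 26060 CPM in ascending water and 27100 to 29890 CPM in ascending BAPN. In descending water it ran from 23570 to 26780 CPM and in descending BAPN from 27560 to 30250 CPM. In each region every BAPN library thus lay above every water library. The first principal component of 33 pseudogenes parted the libraries into 2 sets that no label names. Ascending water 4 and 5, ascending BAPN 1 to 5 and descending water 1, 2 and 5 lay on the side with the higher pseudogene level. All others lay on the lower side. In each region all 5 BAPN libraries lay on 1 side, so the BAPN calls are also given within a set of libraries. Under BAPN the sets are the same as the regions, so the 2 cannot be told apart there. A bulk library cannot tell more heart muscle cells from more transcript per cell.

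The ascending aorta carried far more heart muscle transcript than the descending aorta, and its amount differed widely between libraries of the same group. The summed level of the 35 genes was 2256, 1227, 1408, 1579 and 2137 CPM in ascending water replicates 1 to 5, and 2192, 1755, 2015, 2782 and 2196 CPM in ascending BAPN replicates 1 to 5. The 10 descending libraries lay between 634 and 767 CPM, below every ascending library. In percent of all counts, the 35 genes took 0.124 to 0.230% in ascending water, 0.179 to 0.283% in ascending BAPN, 0.0637 to 0.0657% in descending water and 0.0659 to 0.0736% in descending BAPN. The genes fall into 3 classes by the ratio of ascending to descending aorta under water. Here and below, this ratio sets the summed counts of each group against its summed library totals. It leaves out the TMM factors, so it differs somewhat from a ratio of mean CPM. In 23 genes the ratio was 10.9 to 1183 (a lower bound for Myl2, Csrp3 and Xirp2, which had no descending count under water), in 3 (Myh7, Actn2 and Nppb) it was 3.51 to 6.99, and in 9 (Ryr2, Hrc, Ckm, Cox8b, Fabp3, Myoz2, Myom1, Nebl and Xirp1) it was 0.586 to 1.76. Ascending libraries held 563 to 1906 CPM of the 23 genes, and descending libraries 17.6 to 26.2 CPM. The other 12 genes made up most of the descending sum, 608 to 659 CPM under water, and 665 to 829 CPM in the ascending aorta under water. Under water, replicate 2 was the lowest of the 5 ascending libraries for 25 of the 34 genes tested, against 21.1% of all genes tested, and replicate 1 was the highest for 18, against 22.2% of all genes.

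**Figure D1:**
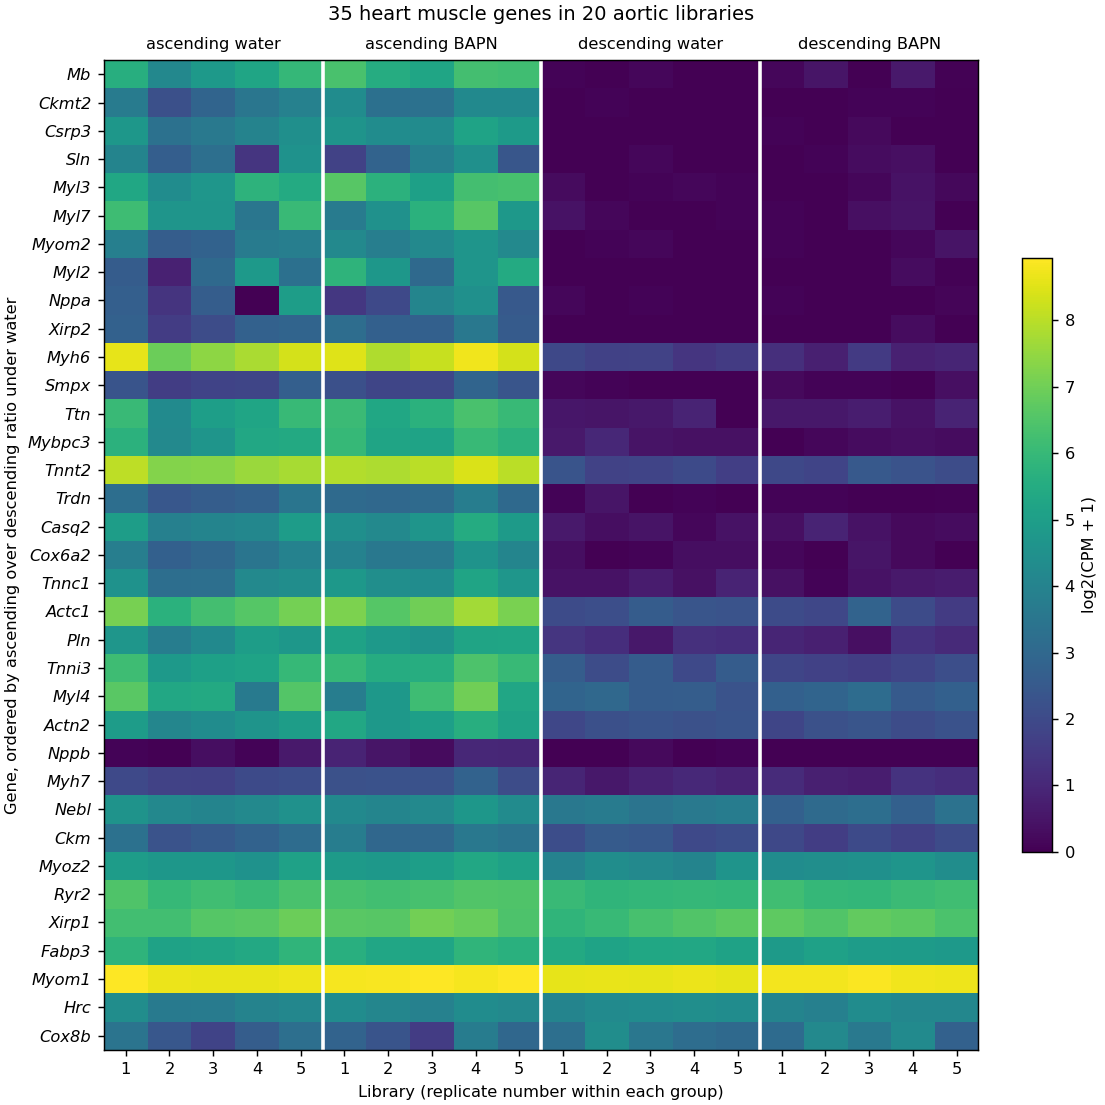
Level of each of the 35 heart muscle genes (rows, ordered by the ratio of ascending to descending summed counts over library totals under water) in each of the 20 libraries (columns, numbered by replicate within the 4 groups), as log2(CPM + 1). Most genes are high in all 10 ascending libraries and near 0 in all 10 descending ones, while the genes at the bottom, with Myom1 the highest in CPM, are at like levels in both regions.

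**Figure D2:**
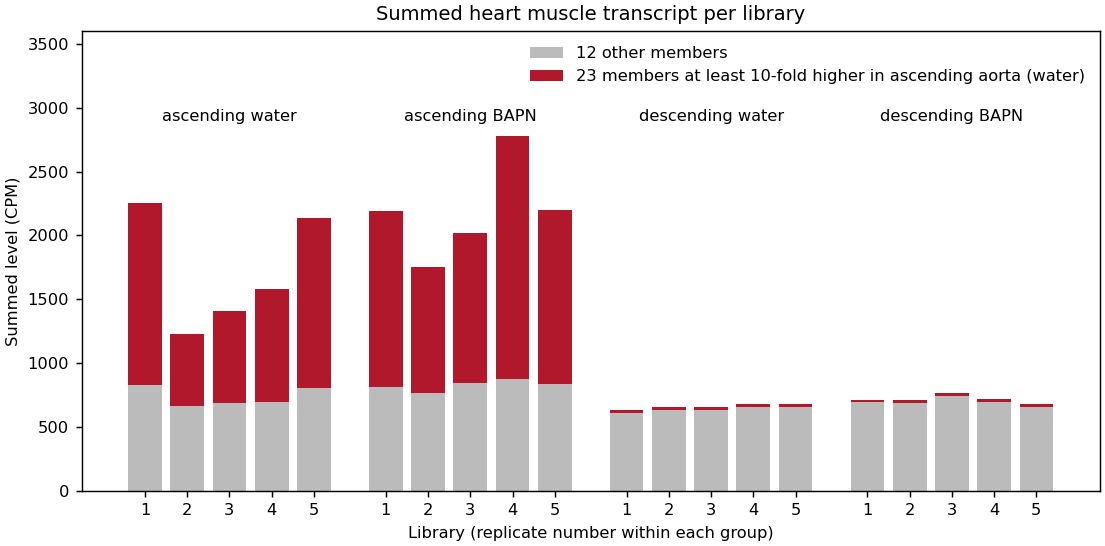
Summed level in CPM (bars from 0) of the 35 genes in each library, split into the 23 genes at least 10-fold higher in the ascending aorta under water (red) and the other 12 (grey). The red part runs from 563 to 1906 CPM in the ascending libraries and from 17.6 to 26.2 CPM in the descending ones.

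Because genes of unequal length gather counts unequally, levels of different genes are compared per kilobase of exon. On that scale the ascending aorta under water was led by Myl7 at 66.2 CPM per kb, then the cardiac actin Actc1 at 60.9, the fatty acid carrier Fabp3 at 54.2, the M-band protein Myom1 at 40.5 and the adult cardiac myosin heavy chain Myh6 at 36.6. These are group means. Myl7 had 196 counts in ascending water replicate 4 and 1428 in replicate 1, so its rank need not hold in each library. The lowest were the natriuretic peptide gene Nppb at 0.229 CPM per kb, the slow myosin heavy chain Myh7 at 0.324 and titin (Ttn) at 0.371. In the descending aorta under water the order was led by Fabp3 at 46.4 CPM per kb, Myom1 at 37.7 and Cox8b, a subunit of cytochrome oxidase, at 30.3.

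Promoter sequence is shown for the 4 of these genes with a CArG box, the first motif below. They are Myl7 (atrial light chain), Myl3 (ventricular light chain), Actc1 (actin of both chambers) and Myom1 (as high in the descending as in the ascending aorta). Each line gives the 200 bases before the start site, 5′ to 3′ on the gene's strand, from RefSeq on GRCm38.p6, with capitals for matches to 5 motifs searched on both strands: the CArG box bound by serum response factor, the site of MEF2 factors, the letters AGATAA of GATA factors, the letters CATTCC of TEAD factors, and the TATA box as TATAAA. The regions are chr11:5898783-5898982 on the minus strand for Myl7, chr9:110763478-110763677 on the plus strand for Myl3, chr2:114052876-114053075 on the minus strand for Actc1, and chr17:71019357-71019556 on the plus strand for Myom1.
Myl7: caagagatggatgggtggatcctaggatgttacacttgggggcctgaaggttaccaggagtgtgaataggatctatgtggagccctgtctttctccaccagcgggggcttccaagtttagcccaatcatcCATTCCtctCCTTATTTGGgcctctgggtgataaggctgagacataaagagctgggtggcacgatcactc
Myl3: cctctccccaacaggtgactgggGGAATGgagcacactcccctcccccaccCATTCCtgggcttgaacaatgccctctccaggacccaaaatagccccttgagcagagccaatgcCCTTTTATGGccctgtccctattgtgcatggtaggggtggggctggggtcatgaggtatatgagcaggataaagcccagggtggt
Actc1: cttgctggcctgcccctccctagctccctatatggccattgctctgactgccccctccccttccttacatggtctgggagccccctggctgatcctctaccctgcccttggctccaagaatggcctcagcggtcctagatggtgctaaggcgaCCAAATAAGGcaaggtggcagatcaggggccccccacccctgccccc
Myom1: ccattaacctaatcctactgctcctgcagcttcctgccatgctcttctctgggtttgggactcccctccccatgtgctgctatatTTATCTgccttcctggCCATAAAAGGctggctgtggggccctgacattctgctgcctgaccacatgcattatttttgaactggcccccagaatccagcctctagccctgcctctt
These 4, shown because they have a CArG box, are 13.3% of the 30 of the 35 genes with a RefSeq promoter entry. The share was 1.18% of 32851 promoters of the same length. The box ended 51 bases before the start site in Myl7, 75 in Myl3, 37 in Actc1 and 89 in Myom1. It was thus found both in genes that were near 0 in the descending aorta and in Myom1, which was not. A MEF2 site was found in 5 of the 30 (Mybpc3, Ttn, Casq2, Myoz2 and Xirp2), 16.7% against 2.29% of all promoters. AGATAA was found in 4, 13.3% against 7.80%, CATTCC in 4, 13.3% against 10.1%, and TATAAA in 2, 6.67% against 9.96%. The AGATAA and CArG matches in Myom1, and the CATTCC and CArG matches in Myl7 and Myl3, did not overlap. These letters are matches in a window and not measured sites. The start site used lay 7762 bases from the annotated transcript start for Myl2 and 3886 bases for Tnnt2. Their windows held no match to the motifs and may not be the promoters of the heart transcripts.

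The thick filament genes were almost wholly ascending. Myh6 stood at 390.4, 121, 172, 220.0 and 327 CPM in ascending water replicates 1 to 5, and at 2.87, 2.28, 2.42, 1.61 and 1.90 CPM in descending water replicates 1 to 5. Its lowest ascending library was far above its highest descending one, and its log2 difference, descending minus ascending, was -6.78 (SE 0.31, adjusted p = 4.03e-15, edgeR's quasi-likelihood test with Benjamini-Hochberg adjustment over 15543 genes). Mybpc3, a myosin-binding protein of the thick filament, was 35.3 ± 14.3 CPM (SD, n = 5, as for each ± here) in ascending and 0.501 ± 0.283 CPM in descending water. Myh7, the myosin heavy chain of the fetal and of the stressed mouse ventricle, was low everywhere: 2.79 ± 0.45 CPM in ascending water and 0.820 ± 0.199 in descending water. There were 0.00753 to 0.0198 counts of Myh7 for each count of Myh6 over the 10 ascending libraries. Reads from these neighbouring paralogs can be misassigned, so the Myh7 level is uncertain.

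Of the light chains, Myl2 had 990 counts in the 5 ascending water libraries and 0 in the 5 descending ones, so it was at least 304-fold higher, against a floor of 3 counts over the group. Myl3 had 3629 counts against 8, a ratio over library totals of 417.9 (95% interval of the counts 212 to 969), and Myl7 3968 against 10, a ratio of 366 (199 to 763). Intervals and floors cover counting error only. Myl4 was the exception, with 57.4 ± 38.1 CPM in ascending and a mean of 5.52 CPM in descending aorta under water. In each descending water library it was between 3.93 and 7.08 CPM, while Myl7, which it accompanied at 1.05 to 1.72 counts per Myl7 count in all 10 ascending libraries, was at or under 0.358 CPM there. Descending libraries with any Myl7 held 12 to 102 counts of Myl4 per count of Myl7.

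The thin filament followed the same order. Actc1 stood at 138, 51.4, 75.3, 94.3 and 133 CPM in ascending water replicates 1 to 5 and at 3.12, 3.45, 5.0, 4.08 and 3.87 CPM in descending water replicates 1 to 5. No descending library came near an ascending one, and the log2 difference was -4.66 (SE 0.28, adjusted p = 9.12e-13, edgeR). Troponin T (Tnnt2) was 197 ± 46.1 CPM against 2.83 ± 0.724, troponin C (Tnnc1) 15.4 ± 6.58 against 0.50 ± 0.227, and troponin I (Tnni3) 45.4 ± 19.3 against 4.29 ± 1.12. The ratio of summed counts over library totals, without TMM factors, was 71.8 for Tnnt2, 32.3 for Tnnc1 and 11.0 for Tnni3.

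Genes of the Z-disc and M-band, which anchor thin and thick filaments, split between both patterns. Csrp3, a Z-disc sensor of stretch, had 1661 counts in ascending water and 0 in descending water, at least 510-fold higher, and Xirp2, a protein of the junctions between heart muscle cells, 470 against 0, at least 144-fold. Titin, the spring of the sarcomere, was 43.3 ± 20.9 CPM against 0.447 ± 0.305, and the M-band protein Myom2 10.02 ± 4.03 against 0.0338 ± 0.0491. Its relative Myom1 did not part the regions. It stood at 487, 413, 403, 395 and 423 CPM in ascending water and at 386, 399.9, 390.3, 404 and 389 CPM in descending water, in ranges that overlap (log2 difference -0.11, SE 0.05, adjusted p = 0.104). Where exons of Myom1 overlap those of Myl12a on the opposite strand, their reads cannot be told apart, since the strand setting is not given in the sources used here, and Myl12a had 67892 counts over the 20 libraries. The same holds for Myl3 and Pth1r, Mb and Apol6, Pln and Cep85l, and Fabp3 and Zcchc17, where the partner had 9446 to 11890 counts. Xirp1 was 92.7 ± 19.1 CPM against 78.7 ± 19.1 (adjusted p = 0.238). The Z-disc genes Myoz2 (calsarcin) and Nebl (nebulette) were lower in the descending aorta by smaller steps, with log2 differences of -0.60 (SE 0.12) and -0.75 (SE 0.14). The Z-disc actinin Actn2 lay between these classes, at 24.0 ± 6.38 CPM against 3.61 ± 0.522.

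Among calcium handling genes, Pln (phospholamban), Casq2 (cardiac calsequestrin), Trdn (triadin) and Sln (sarcolipin) had ratios of 19.9, 68.5, 70.3 and 509 between the regions under water, the last from 2 descending counts (interval 141 to 4208). Ryr2, the calcium release channel of the heart, was instead well expressed in both: 74.5 ± 11.1 CPM in the ascending and 60.7 ± 3.72 in the descending aorta under water (log2 difference -0.30, SE 0.08, adjusted p = 0.00553). Hrc, a calcium-binding protein of the reticulum, was 15 ± 3.31 CPM in ascending and 18.6 ± 1.78 in descending water (adjusted p = 0.0617). The natriuretic peptide genes, hormones of stretched heart muscle, were low and uneven. Nppa stood at 5.53, 1.55, 5.22, 0 and 30.4 CPM in ascending water replicates 1 to 5 and at 1.73, 2.93, 15.9, 21.2 and 4.67 CPM in ascending BAPN. Replicate 4 under water had no Nppa count, and replicate 5 had more than all the others of its group together. Nppb was the only one of the 35 genes that did not pass the filter on low counts, with 19 counts in ascending water, 4 in descending water and 0 in descending BAPN.

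Of the genes for oxygen and energy supply, myoglobin (Mb), the mitochondrial creatine kinase Ckmt2 and the muscle form of a cytochrome oxidase subunit, Cox6a2, were ascending, with ratios of 1183 (interval 404 to 5740, from 3 descending counts), 872 (from 1 descending count, 156 to 34460) and 62.9. Cox6a2 made up 4.58 ± 1.80% of Cox6a1 and Cox6a2 counts in ascending water, 6.46 ± 1.82% in ascending BAPN and 0.0671 ± 0.0525% in descending water. Ckmt2 made up 68.3 ± 14.3% of the Ckmt1 and Ckmt2 counts in ascending water and 83.5 ± 5.63% in ascending BAPN. The muscle creatine kinase Ckm was 6.34 ± 2.17 CPM in ascending and 3.80 ± 0.883 in descending water. Fabp3 was 44.6 ± 10.3 CPM against 38.2 ± 3.14 (adjusted p = 0.195). Cox8b, with the lowest ratio of the 35, 0.586, lay on the other side, at 6.12 ± 3.08 CPM in ascending and 10.9 ± 5.23 CPM in descending water, though the difference missed the threshold (log2 0.83, SE 0.39, adjusted p = 0.119). Cox8b is also a gene of brown fat. Descending libraries held 0.174 to 0.349 counts of Cox8b per count of Ucp1, the uncoupling protein of brown fat, and ascending libraries 0.455 to 11.8. The 12 brown fat genes summed to 236 ± 49.6 CPM in ascending water and 379 ± 108 CPM in descending water, with none at 0 in either group. Fabp4, 1 of the 12, had 7573 counts in ascending and 14292 in descending water. Between these groups 7 were called higher in the descending aorta and 2 lower, Ppargc1a (-0.98) and Dio2 (-0.40), beside 12.1% and 15.2% of all genes. The part of brown fat in the Cox8b level was not tested.

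Across the regions, 29 of the 34 genes tested were called lower in the descending aorta under water and 0 higher, where the adjusted p was under 0.05. Of all 15543 genes, 15.2% were called lower and 12.1% higher. Under BAPN 30 were called lower and 0 higher, against 15.6% and 14.2% of all genes. The 5 not called under water were Myom1, Xirp1, Hrc, Cox8b and Fabp3, and under BAPN all of these but Fabp3. Many of the 34 passed the filter only through the ascending libraries, where they are high, so the count describes them and adds no support. Their median log2 difference was -5.92 under water, beside 0.01 for all genes tested.

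The libraries also differed in which chamber's genes they carried. Counts of the atrial genes Myl4, Myl7, Sln and Nppa, as a percent of these plus the ventricular genes Myl2, Myl3 and Myh7, were 80.5, 75.9, 69.7, 21.8 and 79.2% in ascending water replicates 1 to 5. In ascending BAPN replicates 1 to 5 they were 16.0, 41.1, 77.7, 71.7 and 36.6%. The exact binomial 95% intervals are narrow, for example 20.1 to 23.7% for water replicate 4 and 14.8 to 17.2% for BAPN replicate 1. Per kilobase of exon, which weighs short transcripts more, the atrial percent was higher in each of the 10: 34.3% in water replicate 4, 26.6, 56.3 and 49.7% in BAPN replicates 1, 2 and 5, and 79.4 to 88.0% in the other 6. Libraries with a high and with a low atrial share thus stood in the same group, and the groups overlapped. Myl2, for example, stood at 5.13, 0.778, 7.29, 27.3 and 8.75 CPM in ascending water replicates 1 to 5, against 71.2, 24.1, 24.3, 10.3 and 65.4 CPM of Myl7. Under BAPN Myl2 stood at 54.8, 25.7, 7.26, 24.2 and 43.5 CPM, and Myl7 at 12.3, 21.8, 51.3, 97.5 and 25.9 CPM. The ratio of Myl7 to Myl2 counts ran from 0.224 to 30.9, a range of 138-fold, over the 10 ascending libraries. Per kilobase Myl7 was below Myl2 in BAPN replicate 1 alone (ratio 0.742). The pairs Sln to Pln and Myl4 to Myl3 ranged over 16.9-fold and 19.3-fold.

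**Figure D3:**
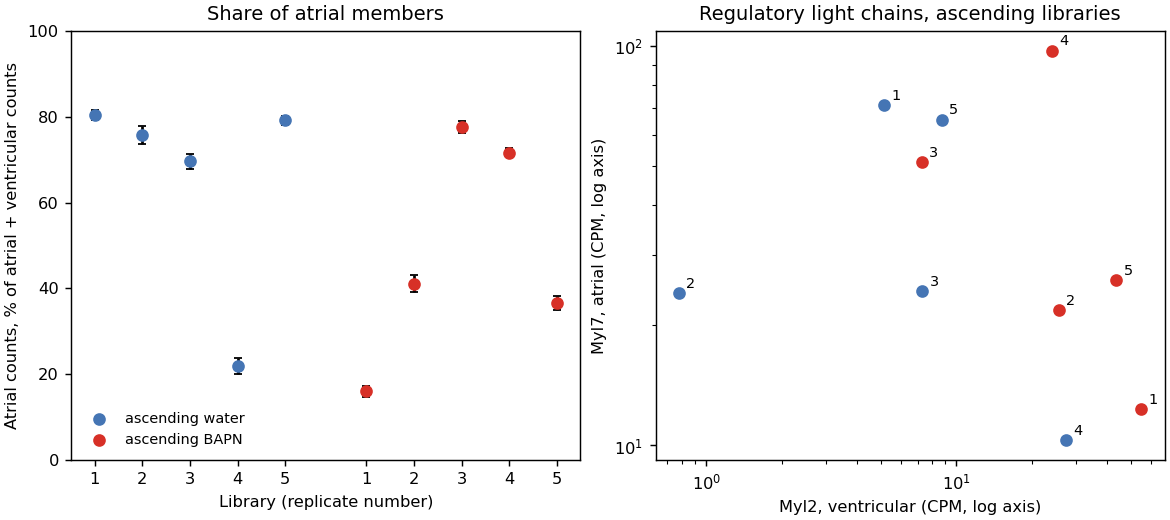
Left, counts of 4 atrial genes as a percent of those plus 3 ventricular genes in each ascending library (points, with exact binomial 95% intervals), and right, Myl7 against Myl2 in CPM on log axes, numbered by replicate. Water replicate 4 and BAPN replicates 1, 2 and 5 lie under 50%, the other 6 ascending libraries between 69.7 and 80.5%.

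Genes that both chambers share kept closer proportions to each other. Over the 10 ascending libraries, in which Myh6 itself ranged from 121 to 426 CPM, counts per Myh6 count ranged over 1.29-fold for Ttn, 1.35-fold for Tnni3, 1.38-fold for Actc1, 1.47-fold for Mybpc3 and 1.92-fold for Tnnt2. The chamber genes did not: 2.66-fold for Myl3 and 6.79-fold for Myl7. In the descending libraries the proportions were different, with 1.09 to 4.15 counts of Actc1 per Myh6 count against 0.354 to 0.489 in the ascending ones, and 1.09 to 3.79 of Tnni3 against 0.163 to 0.22. Descending Myh6 counts were 12 to 56 per library, so these ratios are coarse.

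**Figure D4:**
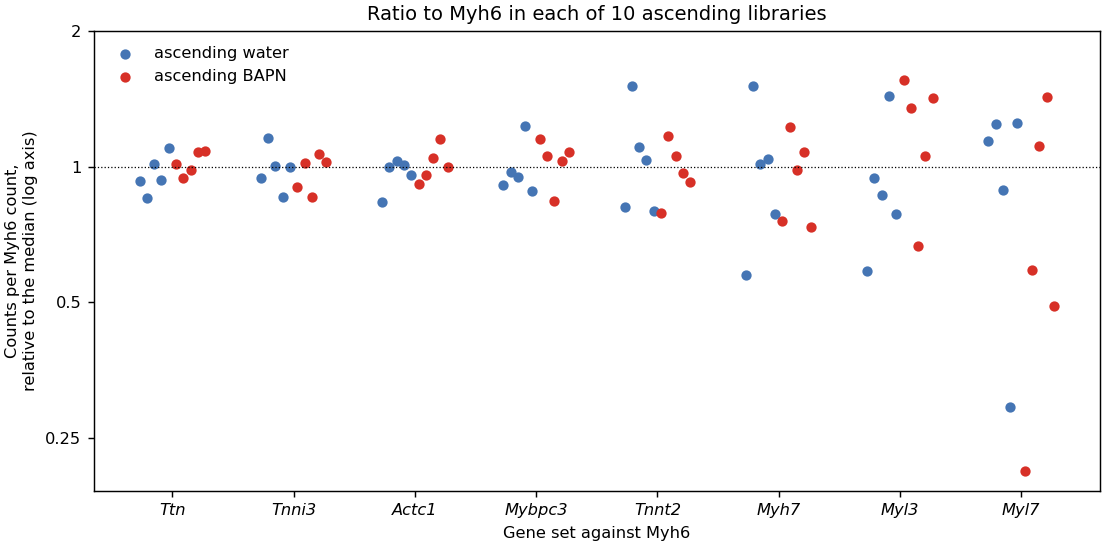
Counts of 8 genes per Myh6 count in each of the 10 ascending libraries, relative to the median of the 10, on a log axis (blue, water; red, BAPN). Ttn, Tnni3, Actc1 and Mybpc3 stay within a range of 1.29 to 1.47-fold, while Myl7 spans 6.79-fold.

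In the ascending aorta, BAPN libraries carried on average more of the heart muscle genes, but the 2 groups overlapped for every one of them. The summed level was 1721 ± 453 CPM under water and 2188 ± 378 CPM under BAPN. Of the 34 genes tested, 5 were called higher and 0 lower, where 3.44% of all genes were called higher and 2.91% lower. The 5 were Myl3, Tnnt2, Tnnc1, Actn2 and Myom2: a ventricular light chain, 2 troponins, the Z-disc actinin and an M-band protein. The median log2 difference of the 34 was 0.43, beside -0.01 over all genes tested. Of the 34, 32 were above 0 (26 without ascending BAPN replicate 4), beside 7552 of all 15543 genes. Many of the 34 vary together between libraries, so they are not separate observations.

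Myl3 stood at 38.7, 19.3, 25.2, 53.4 and 43.5 CPM under water and at 96.5, 52.9, 32.5, 76.1 and 79.5 CPM under BAPN. 3 BAPN libraries were above every water library, and its log2 difference was 0.91 (SE 0.23, adjusted p = 0.0150). Myom2 was 13.6, 5.22, 6.09, 12 and 13.2 CPM under water and 17.6, 13.3, 17.3, 24.1 and 17.6 CPM under BAPN (log2 difference 0.85, SE 0.22, adjusted p = 0.0203). Here 4 of the 5 BAPN libraries exceeded all water libraries.

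Actn2 was 29.9, 16.3, 19.2, 23.9 and 30.7 CPM under water and 40.4, 26.4, 32.3, 47.4 and 34.4 CPM under BAPN, with a log2 difference of 0.59 (SE 0.15, adjusted p = 0.0146), and BAPN replicate 2 alone lay within the water range. For Tnnc1 the values were 22.7, 8.39, 8.54, 17.4 and 19.9 CPM, then 26.4, 20.5, 19.3, 36.1 and 24.9 CPM (0.73, SE 0.22, adjusted p = 0.0433). Of Tnnc1, BAPN replicates 2 and 3 lay within the water range. Tnnt2 was 265, 153, 159, 190.2 and 218 CPM under water and 241, 227, 254, 345 and 256 CPM under BAPN (0.43, SE 0.12, adjusted p = 0.0387), with water replicate 1 above 4 of the 5 BAPN libraries.

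DESeq2 called 2 of the genes higher, Actn2 and, at a small size, Myom1 (0.14), and did not call Myl3 (0.90), Tnnt2 (0.42), Tnnc1 (0.73) or Myom2 (0.84), whose log2 differences there were close to those of edgeR. With only the 10 ascending libraries in the fit, Actn2 and Myom2 kept their calls.

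Several others missed the threshold with differences of like size or larger. Myl2 was 9.85 ± 10.2 CPM under water and 31.1 ± 18.5 CPM under BAPN (log2 1.66, SE 0.50, adjusted p = 0.0525), Mb 37.9 ± 17.3 and 62.7 ± 20.1 CPM (0.72, SE 0.24, adjusted p = 0.0673), and Ckm 6.34 ± 2.17 and 9.5 ± 2.61 CPM (0.58, SE 0.20, adjusted p = 0.0853). Myh6 had 246 ± 111 CPM under water and 328 ± 74.0 CPM under BAPN (0.42, SE 0.20, adjusted p = 0.246). These 4 are not settled by the test used: limma-voom called Myl2 and Mb, and a fit with no filter on low counts called all 4. A fit with a term for the replicate number called Myl2, Mb and Myh6. Leaving out 1 library also gave calls, for Myl2 without ascending water replicate 4, ascending BAPN replicate 3 or descending water replicate 5, for Mb without ascending water replicate 5 or ascending BAPN replicate 3, and for Ckm and Myh6 without ascending water replicate 1. The atrial genes had differences close to 0 with wide errors, and the sign of each changed when single libraries were left out: Myl7 0.10 (SE 0.42), Myl4 -0.05 (SE 0.43), Sln -0.16 (SE 0.47) and Nppa 0.12 (SE 0.66). Libraries with an atrial share under 50% made up 3 of the 5 BAPN and 1 of the 5 water libraries by counts, and 2 and 1 per kilobase, where BAPN replicate 5 lies just under 50%. The part of this in the differences of Myl2 and Myl3 was not tested.

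The count of 5 depended on single libraries. It was 0 without ascending water replicate 3, 1 without ascending BAPN replicate 4, 2 without ascending water replicate 2 and 3 without ascending BAPN replicate 1 or 5. Without ascending water replicate 1 it was 11. BAPN replicate 4 was the highest BAPN library for 25 of the 34 genes. Within the set of libraries on the higher side of the pseudogene split, which holds water replicates 4 and 5 and all 5 BAPN replicates, 0 of the 34 were called, with log2 differences of 0.48 for Myl3 (SE 0.28), 0.51 for Myom2 (SE 0.17), 0.45 for Tnnc1 (SE 0.18), 0.40 for Actn2 (SE 0.17) and 0.37 for Tnnt2 (SE 0.12). Each of these 5 was above 0 there, at a smaller size. With a term for the set in the fit of all 20 libraries, 0 were called as well, and the part of the split in the BAPN difference was not tested.

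**Figure D5:**
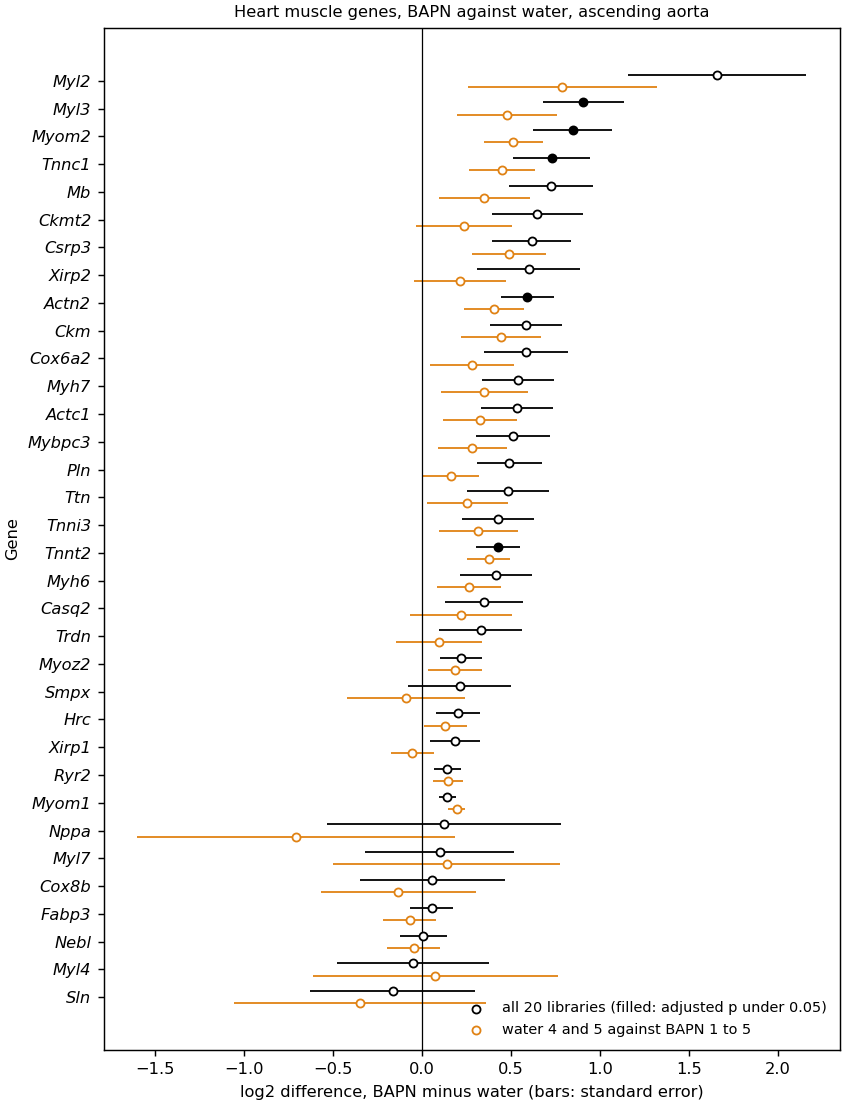
log2 difference, BAPN minus water, with its standard error for the 34 heart muscle genes tested in the ascending aorta, from all 20 libraries (black, filled where the adjusted p is under 0.05) and within water replicates 4 and 5 and BAPN replicates 1 to 5 (orange). Most black points lie above 0, and the orange points of the 5 called genes are smaller, none of them filled.

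In the descending aorta BAPN moved 2 of the 34 genes past the threshold: Myom1 was higher and Nebl, nebulette of the Z-disc, lower. Of all genes 6.18% were called higher and 4.54% lower. Many of the 34 passed the filter only through the ascending libraries. In each descending group 19 of the 35 had a mean under 1 CPM, and with only the descending libraries in the fit 17 were tested. Genes so near 0 could hardly be called, so the 2 calls are not to be read against these shares. Nebl stood at 11.1, 12, 9.78, 11.2 and 12.5 CPM under water and at 5.61, 7.51, 8.38, 5.74 and 9.23 CPM under BAPN, in ranges that do not overlap (log2 difference -0.62, SE 0.15, adjusted p = 0.00675). Myom1 stood at 386, 399.9, 390.3, 404 and 389 CPM and then 434, 440.4, 472, 429 and 415 CPM, again apart (0.15, SE 0.05, adjusted p = 0.0392). Fabp3, 38.2 ± 3.14 CPM under water and 29.3 ± 2.46 CPM under BAPN, did not overlap between groups either, but narrowly missed the threshold (-0.39, SE 0.13, adjusted p = 0.0505). It was called lower by DESeq2, under each other scaling and filter run except library sizes without muscle and brown fat genes, with only the descending libraries in the fit and within the lower set of libraries described next, but not by limma-voom or with a term for the set. It was also called without ascending water replicate 1, 2, 3 or 5, ascending BAPN replicate 2, 3 or 4, descending water replicate 5 or descending BAPN replicate 2. Mybpc3 was also apart, at 0.307 to 0.985 CPM under water and 0 to 0.287 CPM under BAPN, but from few counts and with a wide error (-1.44, SE 0.95, adjusted p = 0.387). DESeq2 called it lower. The share of all genes whose water and BAPN ranges are apart was not counted, so being apart only describes these genes. Within the lower set of libraries (descending water replicates 3 and 4 against all 5 BAPN replicates) neither Nebl (-0.53, adjusted p = 0.160) nor Myom1 (0.13, adjusted p = 0.302) was called, nor was either with a term for the set (Nebl -0.55, adjusted p = 0.0510; Myom1 0.12, adjusted p = 0.214). Myom1 also lost its call without descending water replicate 1, 2, 3 or 5, or descending BAPN replicate 1, 2, 3 or 4. The genes high only in the ascending aorta stayed near 0 under BAPN: Myl2 had 5 counts over the 5 descending BAPN libraries, Csrp3 4 and Xirp2 4.

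In the fit used here the BAPN effect was not found to differ between the regions for any of these genes. The difference of the effects, descending minus ascending, had 0 calls among the 34, and 0% of all genes were called. Genes near 0 in the descending aorta mostly had wide errors, with an SE of 5.23 for Nppa, 4.16 for Myl2, 2.86 for Sln and 2.73 for Myl7. For such genes the test could hardly find a difference, so the lack of calls does not show equal effects. At an unadjusted p under 0.05 there were 7 of the 34 and 1070 of all genes, and DESeq2 called 8 of all genes and limma-voom 0, none of them among the 34. The smallest adjusted p was that of Ckm, 0.354 (log2 -1.08, SE 0.31), then Nebl, 0.408 (-0.63, SE 0.20). With no filter on low counts 2 of the genes were called, Tnni3 (-1.12) and Ckm (-1.07), both with the lower effect in the descending aorta.

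A second list of 30 heart muscle genes outside the 35 was examined beside them, of which 27 were tested. In the regions under water 21 were lower and 0 higher in the descending aorta, against 15.2% and 12.1% of all genes. Genes of this list that are high in the ascending aorta could pass the filter through those libraries alone, so this count too is a description. Their median log2 difference was -1.73, beside 0.01 for all genes tested. Among those lower were Corin, the protease that activates natriuretic peptide precursors (log2 -6.54, SE 0.19), Popdc2 (-1.73, SE 0.08) and desmin (Des, -1.26, SE 0.08). In the ascending aorta under BAPN, where 3.44% of all genes were higher and 2.91% lower, 2 of the 27 were higher, Ldb3 (0.18, SE 0.05) and Nrap (0.51, SE 0.15), and 1 was lower, Tcap (telethonin, -1.63, SE 0.17, adjusted p = 1.23e-06). Tcap was also lower under BAPN in the descending aorta (-1.80, SE 0.18, adjusted p = 3.67e-07). There 2 of the 27 were higher, Tnni3k (1.24, SE 0.34) and again Ldb3 (0.18, SE 0.05), and Tcap was the 1 lower. Of all genes 6.18% were higher and 4.54% lower there. Of 12 cardiac transcription factors, 7 were lower and 1 higher in the descending aorta under water, again beside 15.2% and 12.1% of all genes and with the same limit on what passed the filter. They included Gata4 (51.2 against 0.131 CPM), Hand2 (60.5 against 0.727 CPM) and Tbx20 (141 against 7.84 CPM). Under BAPN 1 of the 12 was higher (Myocd, a coactivator in smooth and heart muscle, 0.54, SE 0.08) and 1 lower (Tbx18, -0.21, SE 0.06) in the ascending aorta. In the descending aorta, where 6.18% of all genes were higher, 2 were higher, Myocd (0.56, SE 0.08) and Gata6 (0.25, SE 0.08). Nkx2-5, a transcription factor of heart muscle, was 2.82 CPM on average in ascending water and had 0 counts in every descending library.

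Skeletal muscle RNA was looked for with 25 genes. Of these 10 passed the filter, and 19 had a mean below 1 CPM in ascending water. The fast myosin genes Myh1, Myh2 and Myh4 were at or under 0.0954 CPM in every group and Tnnc2 at 0 in 3 of the 4 groups. The list summed to 111 to 138 CPM in ascending water libraries and 235 to 266 CPM in descending water, mostly from Casq1, at 102 and 230.1 CPM. Acta1, skeletal actin, which heart muscle also makes, was 0.677 CPM under water and 2.20 CPM under BAPN in the ascending aorta (log2 difference 1.70, SE 0.46, adjusted p = 0.0241). It was the 1 gene of the 10 called higher there, and Casq1 (-0.19, SE 0.06) the 1 called lower. Of the 10 smooth muscle genes 2 were called higher under BAPN in the ascending aorta, Acta2 (0.32, SE 0.05) and Synpo2 (0.20, SE 0.05), and of the 12 brown fat genes 0 were called under BAPN in either region. The share of all genes called higher in the ascending aorta was 3.44% and that called lower 2.91%, and lists of 10 to 12 genes are too short to read 1 or 2 calls against it.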

How the data were processed

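The 20 libraries are RNA from mouse aorta, prepared with a fibrous tissue RNA kit and an NEBNext Ultra kit, per the labels' protocols. The authors deposited raw counts per gene, and the submitters' processing notes name fastp, STAR 2.5, HTSeq 0.6.1 and the mm10 genome. The gene annotation and the strand setting are not given in the sources used here. All 20 per-library files equal the series table. Symbols and exon lengths came from GENCODE vM21, which matched 54495 of 54532 gene IDs, and 30946 genes had a count. Of the 35 genes, 16 share exon sequence with another gene.

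Genes were kept by filterByExpr (minimum count 10, minimum total 15), which left 15543. All 20 libraries were fitted together, by group, with the quasi-likelihood test of edgeR 4.0.16 under R 4.3.3. Its 5 comparisons were adjusted by Benjamini-Hochberg over all genes tested and called under 0.05. Totals of 15744725 to 23292294 counts put 1 count at 0.0414 to 0.0622 CPM. Scripts were tested on simulated counts. Alternatives were other scalings and filters, DESeq2 1.42.0, limma-voom (limma 3.58.1), other sets of libraries, a replicate block and leaving out each library.

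The genes and lists were chosen with earlier results of these data known. All 35 may be named, and of each other list up to 4 genes with the smallest p in a comparison, while Nkx2-5 and the fast myosin genes were named for their levels.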

Additional observations from a re-analysis of the deposited data

Results flagged for a closer look

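Groups of 5 libraries were checked 106 times for a library far from the other 4, and 5 were found, all for single genes. A single gene was checked in a group where each library had at least 10 counts. The checks also took in the summed levels of all 35 genes and, in the ascending groups, of the atrial and ventricular genes, without that rule. Chance flags about 1 in 20 groups. In ascending BAPN replicate 4, Myh7 stood at 6.013 CPM where the other 4 libraries lay between 3.173 and 3.726, Tnnt2 at 344.8 CPM where they lay between 226.8 and 256.0, and Trdn at 12.8 CPM where they lay between 7.208 and 7.611. That library was also the highest BAPN library for 25 of the 34 genes tested. In descending BAPN replicate 3, Actc1 stood at 6.152 CPM where the others lay between 1.952 and 3.139. In descending water replicate 2, Cox8b stood at 20.02 CPM where the others lay between 7.24 and 10.59, and Ucp1 at 61.3 CPM where they lay between 24.9 and 38.7.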

How the results depend on the processing

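The regional calls moved little. Lower calls stayed at 26 to 29 under water and 28 to 31 under BAPN in every fit run, with 28 to 29 and 30 to 31 when 1 library was left out; higher calls reached 2 with no filter on low counts, 1 with limma-voom and 1 with the replicate block under water, and 1 with no filter under BAPN, from Hrc and Cox8b (0 to 1 in each when 1 library was left out).

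In the ascending BAPN comparison there were 17 higher calls with no filter, 16 with the replicate block and 9 with limma-voom, each including all 5 named above. The block added Myh6, Myl2, Mybpc3, Tnni3, Actc1, Ttn, Csrp3, Pln, Mb, Ckmt2 and Cox6a2. There were 2 with DESeq2 (1 of the 5, Actn2, and Myom1), 2 with only the groups compared (Actn2 and Myom2) and 0 with a term for the pseudogene set or within the higher set, and the count ran from 0 to 11 when 1 library was left out. In the descending aorta the higher call became 2 with no filter and 0 with upper-quartile factors, the set term or the lower set (0 to 1 with 1 library left out). Fabp3 joined the lower call, making 2, with relative log expression factors, upper-quartile factors, at least 1 CPM in 5 libraries or the replicate block. It was also among 3 with no filter (with Tnni3) and 4 with DESeq2 (with Myh6 and Mybpc3) or only the groups compared (with Myh6 and Tnni3). There were 0 with the set term (1 to 2 with 1 library left out). The regional difference of the effect had 2 lower calls with no filter, and the median of the genes moved from -0.16 to 0.04 with the set term. The cause of these shifts was not tested.

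Over all genes, the 986 ascending BAPN calls became 542 with the set term and 483 within the higher set, the 1667 descending ones 430 within the lower set, the 4243 regional ones under water 2537 and 2601 within the sets, the 4626 under BAPN 2755 with the set term, and the 0 of the difference 41 with no filter, 8 with DESeq2, 16 without descending water replicate 4 and 1 without descending BAPN replicate 5. Same-numbered libraries had correlations of -0.05 to 0.17, and 0, 1, 2 and 1 of 5 pairs passed 0.1. In the comparisons in that order 1, 3, 1 and 5 of 5 libraries correlated best with their own number. In the last of these, the regions under BAPN, the correlations were 0.064 to 0.106. Such weak correlations do not settle whether the numbers pair the libraries. The main fit did not pair them, and the replicate block above is the alternative that uses the numbers. No fit within a set was possible for the regions under BAPN or for the difference. No gene called in a comparison changed sign there in a fit run, and no sign change met the threshold. Of the genes not called, 9 changed sign in at least 1 fit for BAPN in the ascending aorta, 10 for BAPN in the descending aorta, 15 for the difference and 1 (Xirp1) in each regional comparison. For BAPN in the ascending aorta Myl4 was 0.0021 with the set term and 0.075 within the higher set, and Nppa -0.70 and -0.71. With 1 library left out, Myl4 ran from -0.63 to 0.25, Myl7 from -0.48 to 0.43, Sln from -0.70 to 0.30 and Nppa from -0.43 to 1.57. Xirp1 between the regions under water was 0.064 within the lower set.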
